A study of Mus musculus with 34 samples.

Results

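The genes of the AP-1 and immediate early response studied here, Fos, Fosb, Fosl1, Fosl2, Jun, Jund, Egr1, Ier2, Ier3 and Dusp1, 10 in all, were followed across 18 RNA sequencing libraries of cultured MOSJ-Dkk-1 cells. They were chosen by symbol with earlier results of these data known, so counts of them beside shares of all genes are descriptions. All 10 of 10 symbols were present among the 16576 genes of the culture table, of which 16562 were tested. Junb, the remaining Jun family gene, was not used because its row is 1 of 14 at the end of the table whose values in stressed scrMo replicates 2 and 3 lie far below those in the other 16 libraries. MOSJ-Dkk-1 is a single mouse osteochondral sarcoma line that carries a red fluorescent protein label and makes human Dkk-1, a secreted Wnt inhibitor, from a constitutive CMV promoter, and all 6 groups shared this background. Log phase cultures grew for 6 days with fresh medium every 2 days. Cultures under nutritional stress were seeded in the same way, then held at confluence for 48 h and left without fresh medium for 4 days. Within each condition, cells received no morpholino (NT, labelled as vehicle), 5 µM DkkMo, a morpholino directed against Dkk-1, or 5 µM scrMo, its control with mismatched bases, from the day after seeding. These doses are those of the study's methods. A higher dose of DkkMo is named in 1 place of the study's own text, and which applies to these libraries was not settled here. Each group held 3 libraries. All cells were trypsinised, washed and frozen before RNA was extracted. The levels given are thus levels after harvest, in which handling and culture state cannot be told apart, and the part of handling was not tested. The titles of 2 stressed NT libraries share a number, so p values measure the spread between these samples, which may be technical in part. The human Dkk-1 transcript was not analysed here.

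AP-1 is a dimer of basic leucine zipper proteins in which a Fos protein pairs with a Jun protein, or Jun proteins pair with each other, on short DNA elements. Immediate early genes such as Fos, Jun and Egr1 are transcribed within minutes of serum, growth factor or stress signals carried by MAP kinases, without new protein synthesis, and their transcripts decay fast. Fosl1 and Fosl2 are slower and more sustained members that are abundant in many mesenchymal tumour cells, and AP-1 is long known in bone, where Fos drives osteosarcoma in mice. Dusp1 closes the circuit as a phosphatase that inactivates MAP kinases. The questions were how these genes stood in growing and in starved cells after harvest, and whether either morpholino moved them.

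The promoters of Fos, Jun and Dusp1 are shown because these genes moved in the log phase morpholino comparisons and because their upstream windows hold known AP-1 and CREB elements. They were picked for holding such elements, so the matches are a description and no test. Ier3 also moved in log phase, and its window is not shown because it held none of the letters searched. RefSeq (GRCm38.p6) gave promoter windows for 7 of the 10 genes. The 250 bases before the transcription start were searched on both strands for the CRE (TGACGTCA), its half-site (TGACGT, which the CRE contains), the TRE (TGANTCA), the Jun element TGACATCA, the TATA box letters TATAAA and the CArG box. Capitals mark the matches, and each sequence runs 5′ to 3′ on the strand of the gene.
Fos, chr12:85473640-85473889, plus strand: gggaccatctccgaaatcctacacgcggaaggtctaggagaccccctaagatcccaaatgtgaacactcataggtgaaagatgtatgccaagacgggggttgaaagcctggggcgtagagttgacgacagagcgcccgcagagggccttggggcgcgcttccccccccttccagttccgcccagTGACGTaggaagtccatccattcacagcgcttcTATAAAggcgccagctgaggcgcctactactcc
Jun, chr4:95052223-95052472, minus strand: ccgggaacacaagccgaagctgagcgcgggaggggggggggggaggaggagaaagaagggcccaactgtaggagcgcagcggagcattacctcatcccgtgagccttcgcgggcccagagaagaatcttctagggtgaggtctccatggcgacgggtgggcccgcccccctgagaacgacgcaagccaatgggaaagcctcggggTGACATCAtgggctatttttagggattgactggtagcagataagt
Dusp1, chr17:26508473-26508722, minus strand: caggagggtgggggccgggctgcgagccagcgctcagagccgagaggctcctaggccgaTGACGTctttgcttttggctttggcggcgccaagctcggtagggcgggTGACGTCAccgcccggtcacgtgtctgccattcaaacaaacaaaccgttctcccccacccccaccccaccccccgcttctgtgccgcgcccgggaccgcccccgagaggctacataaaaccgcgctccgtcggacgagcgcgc
The half-site in Fos begins 66 bases before the start and its TATA box 33 bases before. The Jun element begins 45 bases before the start. Dusp1 holds a full CRE at 143 bases and a separate half-site at 191 bases before the start. Over all 32841 windows of this length, 1.55% held a CRE, 6.47% a half-site, 6.75% a TRE, 2.93% the Jun element, 12.4% the TATA letters and 1.47% a CArG box. The windows of Fosb, Fosl2, Jund and Ier3 held none of these letters. Bases further upstream than 250 were not searched, so a missing match, such as that of a CArG box in Fos, covers this window only. Window starts are those of RefSeq and can differ from the gene spans given below, which are from GENCODE. The Jund window (70697489 to 70697738) ended well before the Jund span (from 70698949), so it does not describe the bases next to that start. The windows of Fosl2 and Dusp1 lay inside the spans of these genes.

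Each library had 25.9 to 44.8 megareads on the genes tested, and Spearman correlations over genes between libraries of a group were 0.992 to 0.998. Values below are normalised read counts, that is, reads divided by a size factor for the library. Changes were taken as the log2 difference of 2 group means on the deposited variance-stabilised scale, which compresses changes of genes with few reads, and are given with the standard error (SE). A gene was called differentially expressed (DE) at an adjusted p below 0.05 in limma and a change over 1.5-fold. For 1 gene, an exact two-sided permutation test of 3 against 3 libraries cannot go below p = 0.1, which it reached wherever the groups did not overlap. Among lineage markers Spp1 (49248 to 214487), Sox9 (4523 to 9248) and Runx2 (1736 to 5718) were high in every library, whereas the osteoblast genes Alpl and Bglap (at most 24.4 and 43.9) and the cartilage gene Col2a1 (at most 26.8) were near absent, and Sp7, Ibsp and Acan were not among the genes listed. Of 6 macrophage markers 4 were listed, with a summed level of 960 to 2411, of which the defining leukocyte marker Ptprc gave at most 20.3. Of 4 endothelial markers 1 (Pecam1, 269 to 426) and of 4 epithelial markers 0 were listed. The macrophage sum was 960 to 1032 in log phase NT, 1285 to 1899 in log phase morpholino cultures and 2088 to 2411 under stress. Its members did not move together, since in NT cultures the mean of the lysosomal Cd68 was 400 in log phase and 1425 under stress and that of Csf1r 445 and 740.02, whereas Lyz2 stood at 126 and 98.1 and Ptprc at 15.5 and 4.89. Spp1, Col1a1 and Sparc were lower and Runx2 higher in every stressed library than in the log phase libraries of the same treatment. The part of these shifts in the results below was not tested. In such bulk samples, fewer cells of a kind and less RNA per cell cannot be told apart.

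Per kilobase of exon, the mean normalised count over all libraries was 9075 for Ier3, 8880 for Fosl1, 2538 for Egr1, 2394 for Jun, 1891 for Ier2, 1338 for Dusp1, 720.1 for Fosl2, 293 for Fos, 293 for Fosb and 28.3 for Jund. On this scale Fosl1 was the highest Fos family transcript with the reads it shares with Ccdc85b included, and its rank without them is not known. Jun was above Jund. On the raw count, Fosl1 lay above 98.7% of all genes and Egr1 above 97.7%, whereas Fos lay above 53.7% and Jund above 21.6%. The ratio of the highest to the lowest group mean was 4.13 for Egr1 and 4.12 for Fos, 2.65 for Fosl1 and 2.38 for Ier2, and at most 1.99 for the other 6 genes. The plot of normalised counts by library shows the 18 values of each gene.

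**Figure D1:**
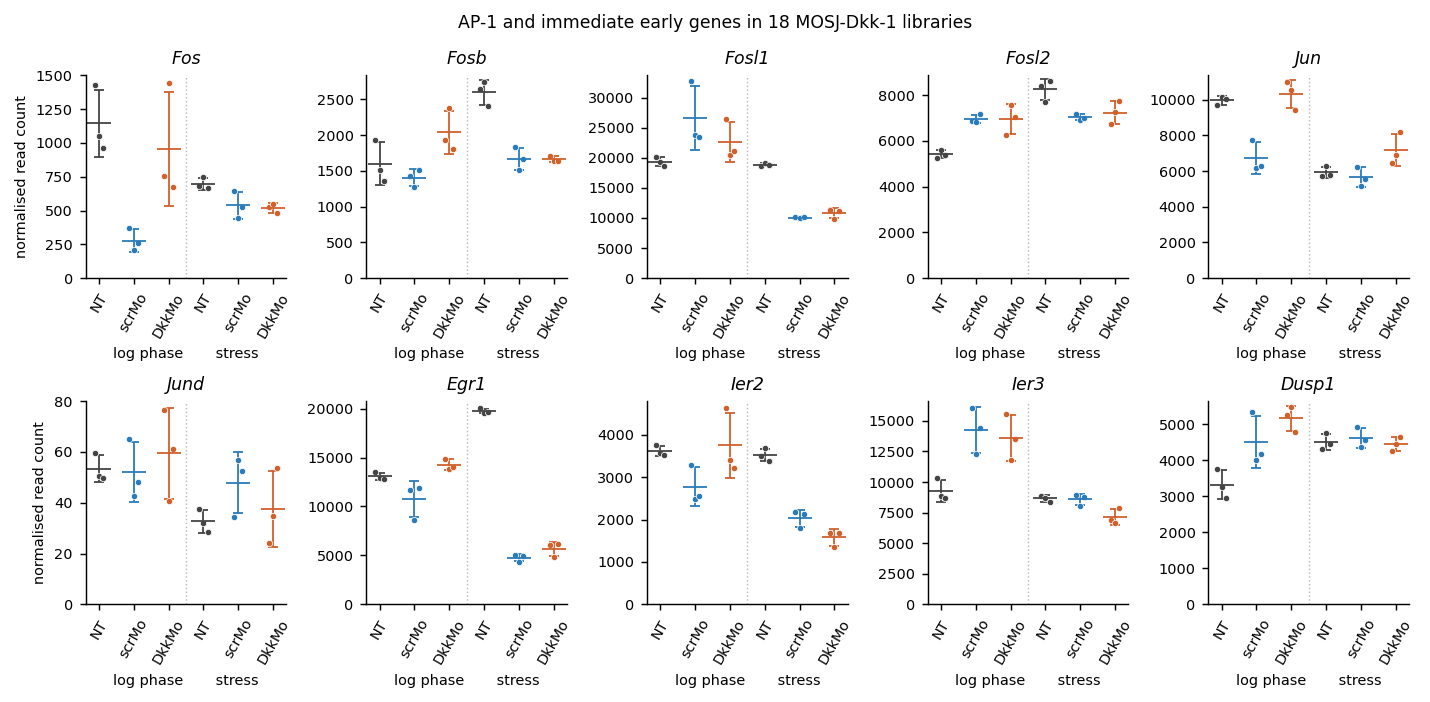
Normalised read count (linear axis from 0) of each of the 10 genes in 3 libraries (points) of each culture group, with the group mean (horizontal dash) and its standard deviation (bars); grey is NT, blue scrMo and orange DkkMo. Egr1 stood highest in stressed NT cultures (mean 19739) and lowest in stressed scrMo cultures (mean 4784), and Fos was lowest in log phase scrMo cultures (mean 278).

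Under nutritional stress, Egr1, Fosl1 and Ier3 fell in both morpholino groups, and none of these 3 was DE in NT cultures. There Egr1 was higher under stress by 0.58, just under 1.5-fold, whereas Fosl1 and Ier3 stood at -0.04 and -0.09. In NT cultures Fosb rose and Jun fell, and no other gene was DE, so that 2 of 10 were called where 18.1% of all genes were. On log2 counts plus 1 and with voom, which compress low counts less, 6 of 10 were called, where 37.7% and 38.1% of all genes were. With scrMo, Fosl1, Egr1 and Ier3 fell and Fos rose, 4 of 10 against 10.7% of all genes. With DkkMo, Egr1, Ier2, Fosl1, Ier3 and Fos fell, 5 of 10 against 16.5%. With voom, 4 of 10 were called in scrMo cultures against 27.1% of all genes, and 6 of 10 in DkkMo cultures against 35.4%. The median log2 fold change of the 10 genes was -0.04 in NT, -0.14 in scrMo and -0.55 in DkkMo cultures, beside -0.01 over all genes in each. Because library medians lay 0.16 lower under stress in NT and DkkMo cultures and 0.07 lower in scrMo cultures, calls close to 1.5-fold moved with centring, as given for each gene.

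**Figure D2:**
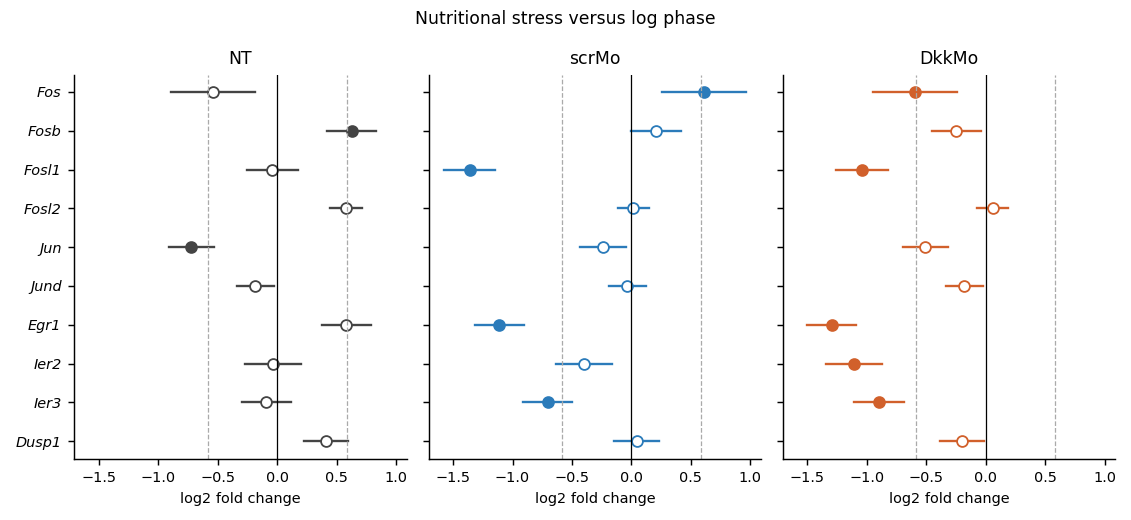
Log2 fold change (x axis, deposited scale) of each gene under nutritional stress against log phase in NT, scrMo and DkkMo cultures, with 95% confidence intervals from limma; filled points are DE and dashed lines mark 1.5-fold. Egr1 lies at 0.58 in NT but at -1.11 and -1.30 in scrMo and DkkMo cultures.

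Within a condition, the largest differences were those of Fos in log phase and of Egr1 under stress. In log phase, scrMo cultures had less Fos and more Ier3 than NT, 2 of 10 genes against 2.45% of all genes. Under stress, scrMo cultures had less Egr1, Fosl1 and Ier2 than NT, 3 of 10 against 4.43%. With voom, which compresses low counts less, these became 2 of 10 against 8.12% in log phase and 4 of 10 against 17.8% under stress. Against NT, DkkMo cultures had more Dusp1 in log phase, 1 of 10 against 0.827%, and less Egr1, Ier2 and Fosl1 under stress, 3 of 10 against 2.66%. With voom, these became 1 of 10 against 3.44% and 4 of 10 against 13.9%. In log phase Dusp1 also stood higher with scrMo than in NT (0.40), under 1.5-fold. The comparisons of scrMo and of DkkMo with NT use the same NT libraries, so that their shared direction is not independent. DkkMo against scrMo, the contrast of the antisense with its control, was higher for Fos and Jun in log phase, 2 of 10 against 1.97%. With voom, it was 2 of 10 against 6.86%. Under stress 0 of 10 genes were DE between DkkMo and scrMo by limma on the deposited values, against 1% of all genes, and 0 of 10 by limma voom, against 5.54%, although 4 had an unadjusted p below 0.05.

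**Figure D3:**
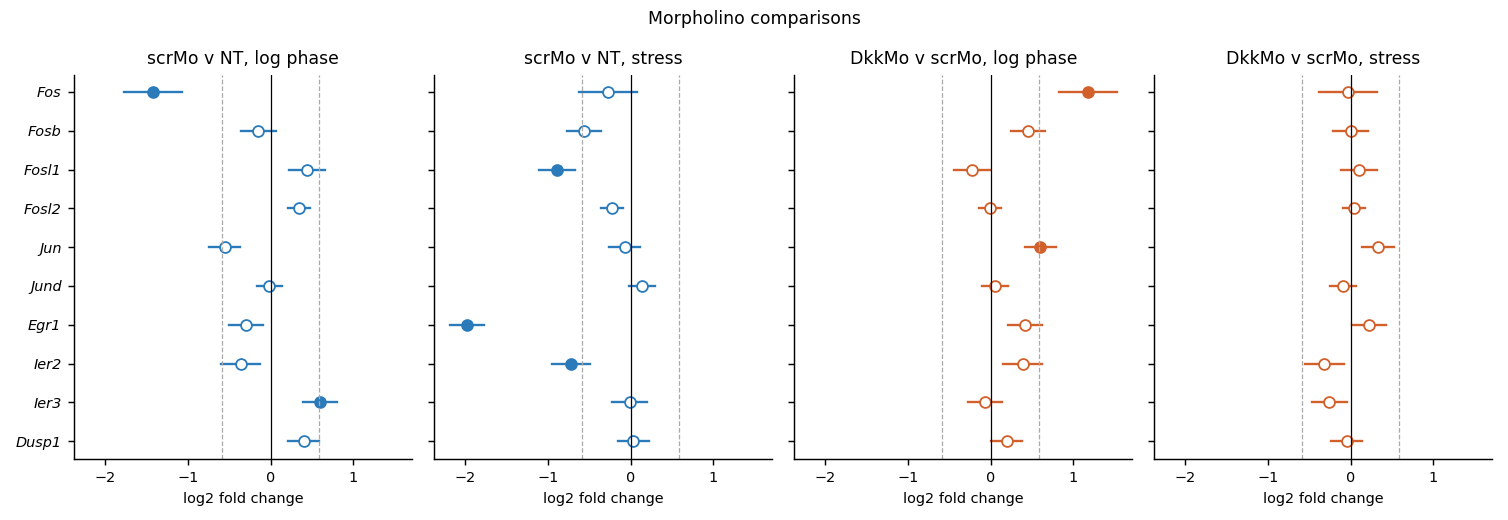
Log2 fold change (x axis, deposited scale) of each gene for scrMo against NT and for DkkMo against scrMo in both culture conditions, with 95% confidence intervals from limma; filled points are DE and dashed lines mark 1.5-fold. Fos lies at -1.42 for scrMo against NT and at 1.18 for DkkMo against scrMo in log phase, and no gene is filled for DkkMo against scrMo under stress.

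Fos (chromosome 12, 85473890 to 85477273, plus strand, 4 exon blocks) encodes the founding Fos protein. In log phase the normalised counts were 1426, 1052 and 959.7 in NT, 368, 207 and 259.6 in scrMo and 753, 1444 and 677 in DkkMo cultures. Under stress they were 681, 747 and 664 in NT, 645, 448 and 526 in scrMo and 525, 549 and 482 in DkkMo cultures. All 3 log phase scrMo libraries lay below every other library, whereas DkkMo and NT libraries overlapped, with 1 DkkMo library above the highest NT library and the other 2 below the lowest. The mean in log phase scrMo was 0.243 times that in NT, a log2 fold change of -1.42 (SE 0.17, adjusted p = 5.35e-06). DkkMo cultures had 3.44 times the mean of scrMo cultures, with 1.18 (SE 0.17, adjusted p = 6.43e-05), and 0.91 without the high DkkMo library (replicate 2). Between DkkMo and NT in log phase the difference of -0.25 had a 95% interval of -0.60 to 0.11. Stress moved Fos in opposite directions by group, with 0.61 (SE 0.17, adjusted p = 0.00439) in scrMo and -0.60 (SE 0.17, adjusted p = 0.00422) in DkkMo cultures, and in NT cultures the value of -0.54 (adjusted p = 0.00826) stayed under 1.5-fold. The DkkMo fall rested in part on that same library, being -0.33 without it, and was under 1.5-fold also with libraries centred on their medians (-0.43) and without stressed replicate 3 (-0.56). The scrMo rise was 0.50 without log phase replicate 2 and 0.51 without stressed replicate 1. The NT value passed 1.5-fold on log2 counts plus 1 (-0.70) and with voom (-0.70).

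Fosb (chromosome 7, 19302696 to 19310051, minus strand), a close relative of Fos, had 1936, 1508 and 1351 normalised counts in log phase NT, 1433, 1278 and 1505 in scrMo and 1924, 2383 and 1804 in DkkMo cultures. Under stress the counts were 2649.9, 2739 and 2403 in NT, 1827, 1508 and 1663 in scrMo and 1713, 1633 and 1642 in DkkMo cultures. Stressed NT libraries stood above all other 15 libraries, while the 2 stressed morpholino groups overlapped each other. The rise under stress in NT was 0.63 (SE 0.10, adjusted p = 1.61e-05) and dropped under 1.5-fold, at 0.53, without log phase NT replicate 3. Stressed scrMo and DkkMo cultures each differed from NT by -0.57 (SE 0.10, adjusted p = 0.000127 and 0.000176), just under 1.5-fold, and both passed it with voom (-0.65 and -0.64).

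Fosl1 (chromosome 19, 5447547 to 5455946, plus strand, 4 exon blocks) encodes Fra-1, the Fos relative that is common in invasive mesenchymal cells. Log phase libraries gave 20116, 19286 and 18663 in NT, 32678, 23724 and 23440.3 in scrMo and 26425, 20446 and 21085 in DkkMo cultures. Stressed libraries gave 18608, 19076 and 18799 in NT, 10107, 9921 and 10144 in scrMo and 11346, 9886 and 11191 in DkkMo cultures. In NT cultures the stressed libraries differed from the log phase libraries by -0.04 on the log2 scale, with a 95% interval of -0.26 to 0.18. In scrMo and DkkMo cultures every stressed library lay below every log phase library, with log2 fold changes of -1.36 (SE 0.10, adjusted p = 2.22e-09) and -1.04 (SE 0.10, adjusted p = 4.54e-08). Against NT under stress, scrMo cultures had 0.534 times and DkkMo cultures 0.574 times the mean, or -0.89 (adjusted p = 1.58e-06) and -0.79 (adjusted p = 9.95e-06). In the annotation 57.2% of the exonic bases of Fosl1 are shared with Ccdc85b on the other strand. Ccdc85b had 89.2% to 95.3% of the reads of Fosl1 in every library, so reads of these genes cannot be told apart here, and whether counting used the strand is not given in the sources used here. Values of Fosl1 are thus those of the shared locus.

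Fosl2 (chromosome 5, 32135801 to 32157842, plus strand), which encodes Fra-2, had the smallest ratio between its highest and lowest group means among the 10 genes, 1.52. Its counts were 5244, 5589 and 5397 in log phase NT, 6868, 6822 and 7163 in scrMo and 6246, 7569 and 7037 in DkkMo cultures. Under stress they were 8412, 7711 and 8614 in NT, 7163, 6926 and 7008 in scrMo and 6741, 7239 and 7722 in DkkMo cultures. Log phase NT libraries stood below all others, and the remaining neighbouring groups in the order of means overlapped. Stress raised the NT level 1.52 times in counts, while on the deposited scale the change was 0.58 (SE 0.06, adjusted p = 1.42e-07), just under the limit, and 0.74 with centred libraries. It was 0.02 (95% interval -0.12 to 0.15) in scrMo and 0.06 (-0.08 to 0.19) in DkkMo cultures.

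Jun (chromosome 4, 95049034 to 95052222, minus strand, 1 exon) encodes the main partner of Fos proteins. In log phase 9696, 10134 and 10074 counts were found in NT, 7748, 6161 and 6282 in scrMo and 10978, 10560.1 and 9454 in DkkMo cultures. Under stress 5707, 6294 and 5806 were found in NT, 6253, 5141 and 5549 in scrMo and 6481, 6904 and 8186 in DkkMo cultures. NT and DkkMo libraries of the log phase stood above all others, and the scrMo libraries in log phase lay in the range of the stressed groups. Under stress the NT level fell to 0.595 times, a log2 fold change of -0.72 (SE 0.09, adjusted p = 9.19e-07), which was -0.56 with centred libraries. DkkMo cultures exceeded scrMo cultures in log phase by 0.60 (SE 0.09, adjusted p = 0.000104), a call near 1.5-fold that was lost in 4 of 12 alternatives, the lowest value being 0.54 with centred libraries. In this condition scrMo differed from NT by -0.55 (adjusted p = 0.000170), under 1.5-fold, and DkkMo from NT by 0.05, with a 95% interval of -0.14 to 0.24. Under stress DkkMo also stood above scrMo without overlap, by 0.33 (SE 0.09, adjusted p = 0.0134), less than 1.5-fold. Of the exonic bases of Jun, 7.28% are shared with the antisense gene Junos, which was not used here.

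Jund (chromosome 8, 70698949 to 70700616, plus strand, 1 exon), a Jun protein with a steadier role than Jun, had only 24 to 71 reads per library. Its normalised counts ran from 40.7 to 76.5 in log phase and from 24.3 to 56.8 under stress, and no neighbouring groups in the order of means were free of overlap. The log2 differences between stress and log phase were -0.18 in NT and in DkkMo cultures (adjusted p = 0.0376 and 0.0372), on a scale that compresses such low counts. On log2 counts plus 1 they were -0.69 and -0.67. Of the exonic bases of Jund 52.6% are shared with the antisense gene Gm11175, which had 5 to 28 reads per library, so the count of Jund is uncertain.

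Egr1 (chromosome 18, 34859823 to 34864984, plus strand) encodes a zinc finger factor induced by ERK signalling through serum response elements. Its log phase counts were 13522, 12917 and 12846 in NT, 11734, 8648 and 11864 in scrMo and 14899.9, 13797 and 14059 in DkkMo cultures. Stressed cultures had 20008, 19556 and 19652 in NT, 5044, 4356 and 4953 in scrMo and 6023, 4815 and 6142 in DkkMo cultures. Stressed NT libraries were the highest of all 18, and the stressed scrMo and DkkMo libraries were the lowest 6, with only those 2 groups overlapping among neighbours in the order of means. Under stress scrMo cultures had 0.242 times the NT mean, a log2 fold change of -1.98 (SE 0.10, adjusted p = 3.11e-11), and DkkMo cultures 0.287 times, with -1.76 (SE 0.10, adjusted p = 3.97e-10). Between log phase and stress Egr1 fell in scrMo (-1.11, adjusted p = 1.66e-08) and in DkkMo cultures (-1.30, adjusted p = 1.04e-09), whereas the NT value of 0.58 (SE 0.10, adjusted p = 3.49e-05) was just under 1.5-fold. That NT value was 0.74 with centred libraries and 0.59 with voom, both past the limit. DkkMo differed from scrMo under stress by 0.22, with a 95% interval of 0.02 to 0.43 and overlapping libraries.

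Ier2 (chromosome 8, 84661331 to 84662852, minus strand, 1 exon) is an immediate early gene of nuclear location with a less settled role. Log phase counts were 3749, 3568 and 3531 in NT, 3294, 2477 and 2563 in scrMo and 4633, 3394 and 3214 in DkkMo cultures, and stressed counts were 3494, 3674 and 3386 in NT, 2169, 1804 and 2119 in scrMo and 1689, 1350.1 and 1692 in DkkMo cultures. Stressed DkkMo libraries lay below stressed scrMo libraries, and both lay below all NT libraries. Under stress the log2 fold change against NT was -0.72 (SE 0.11, adjusted p = 3.88e-05) for scrMo and -1.04 (SE 0.11, adjusted p = 1.05e-06) for DkkMo. Between log phase and stress Ier2 fell in DkkMo cultures (-1.11, SE 0.11, adjusted p = 5.63e-08), the scrMo value was -0.40 (adjusted p = 0.00499), under 1.5-fold, and the NT value was -0.04 with a 95% interval of -0.27 to 0.20.

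Ier3 (chromosome 17, 35821684 to 35822923, plus strand), a stress-inducible gene tied to cell survival, gave 10325, 8847 and 8665 counts in log phase NT, 16082, 12295 and 14409 in scrMo and 15567, 11798.5 and 13542 in DkkMo cultures. Under stress it gave 8894, 8717 and 8376 in NT, 8906, 8041 and 8819 in scrMo and 6902, 6681 and 7884 in DkkMo cultures. The 6 log phase morpholino libraries stood above all 12 others. The rise with scrMo over NT in log phase was 0.60 (SE 0.10, adjusted p = 0.000175), near 1.5-fold and lost in 3 of 12 alternatives (lowest 0.51, without scrMo replicate 1), and the DkkMo value was 0.54 (adjusted p = 0.00148). Under stress Ier3 fell by 0.71 in scrMo (adjusted p = 5.54e-06) and by 0.90 in DkkMo cultures (adjusted p = 1.70e-07) on the log2 scale.

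Dusp1 (chromosome 17, 26505590 to 26562128, minus strand) had 3760.1, 3259.7 and 2955 counts in log phase NT, 5330.03, 4003 and 4184 in scrMo and 5243, 5472 and 4777 in DkkMo cultures. Under stress it had 4308, 4753 and 4448 in NT, 4928, 4379.7 and 4551 in scrMo and 4266, 4440.3 and 4655 in DkkMo cultures. Log phase NT libraries were the lowest, and the other 5 groups overlapped with their neighbours. DkkMo cultures stood above NT in log phase by 0.60 (SE 0.09, adjusted p = 0.000236), which was 0.52 without NT replicate 3 and 0.56 without DkkMo replicate 2. Against scrMo in log phase the DkkMo value was 0.19, under 1.5-fold and with overlapping libraries. The scrMo value against NT was 0.40 (adjusted p = 0.00234), and the stress value in NT was 0.41 (adjusted p = 0.000463), both under 1.5-fold.

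The difference between the conditions in the effect of a morpholino was tested directly as an interaction. For scrMo against NT it was DE for Egr1, Fosl1, Fos and Ier3, 4 of 10 genes against 10.9% of all genes, and for DkkMo against scrMo it was DE for Fos and Ier2, 2 of 10 against 3.7%. With voom, these became 5 of 10 against 25.6% and 2 of 10 against 9.06%. The effect of scrMo on Egr1 was -0.29 in log phase and -1.98 under stress. For Fos the effect of DkkMo against scrMo was 1.18 in log phase and -0.03 under stress, and for Ier2 it was 0.39 and -0.32.

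Over the 18 libraries, the deposited values of 31 of the 45 pairs of genes had a positive Pearson's r and 14 a negative one, a description with no test, since libraries of a group share their treatment. Egr1 and Ier2 (r = 0.89), Fosl1 and Ier3 (0.82) and Fosl1 and Ier2 (0.80) were the closest pairs, and Fosl2 and Jun the most opposed (-0.59). Fos and Jun had an r of 0.63 and Fos and Fosl1 one of 0.05. After group means were removed, Fosl1 and Ier2 (0.90) and Fos and Fosb (0.86) were the closest, so that these pairs also varied together between libraries of a group.

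**Figure D4:**
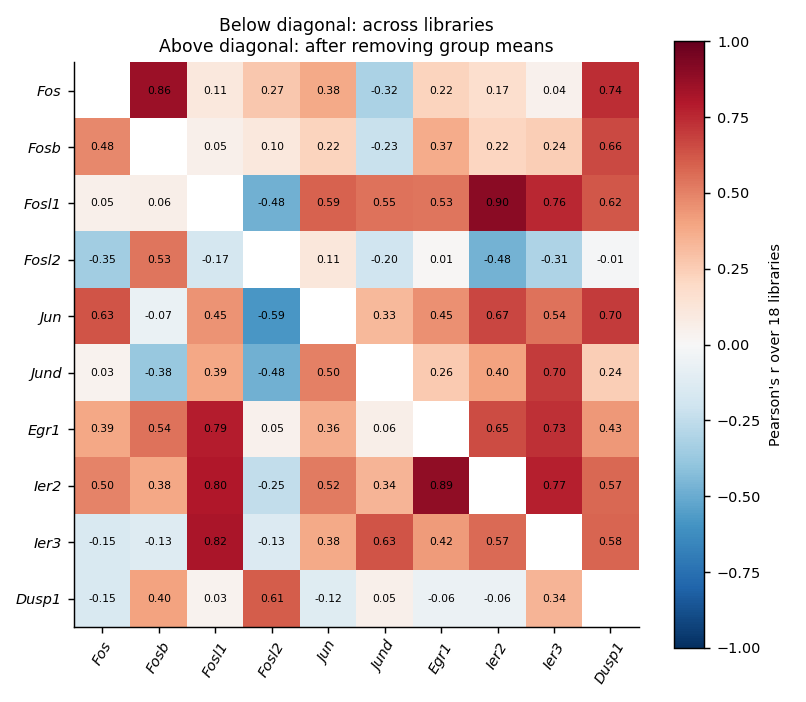
Pearson's r of the deposited values over 18 libraries for each pair of genes, below the diagonal across all libraries and above it after the mean of each group was removed. Fosl1, Egr1, Ier2 and Ier3 form a block of values of 0.42 or more below the diagonal, and Fosl2 and Jun stand at -0.59.

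The same fit covered 5 lists of genes around AP-1, namely its dimer partners, other immediate early genes, ERK feedback genes, MAP kinases with their nuclear effectors, and AP-1 targets. Of these, 10 of 15, 42 of 44, 13 of 15, 22 of 25 and 19 of 20 listed genes were measured, and some genes, such as Atf3, Maff and Phlda1, stand in 2 lists. Calls in the lists were counted on the deposited scale only, not with voom. Under stress in NT cultures, where 18.1% of all genes were DE in either direction (38.1% with voom), 3 of 10 dimer partners rose and 2 fell. The stress factor Atf3 rose most (2.58, SE 0.16), followed by the small Maf protein Maff (1.63, SE 0.10), while Nfe2l1 fell (-0.96, SE 0.06), as did Maf (-0.59, SE 0.13). Of 42 other immediate early genes 14 rose and 5 fell, with Csrnp1 at 2.20, and Nfkbiz and Cebpd at -1.40 and -1.26, and the list had a median of 0.31 beside -0.01 for all genes. Among the 13 ERK feedback genes 4 rose and the other 9 were not DE. Phlda1 (1.60) and the phosphatase Dusp4 (1.58) led, with a list median of 0.37. The JNK and p38 phosphatase Dusp10 (0.98) and the p38 kinase Mapk12 (0.81) led the 3 rises among 22 kinases and effectors, and the SRF cofactor Mrtfa was the 1 that fell (-0.62), so that the 4 of 22 called were close to the share over all genes. Among 19 AP-1 targets 8 fell and 3 rose, with a median of -0.20. Timp1, an inhibitor of metalloproteinases, fell by 2.12 and the collagenase Mmp13 by 1.72, whereas Hmox1, a haem-degrading enzyme of the oxidative stress response, rose by 2.19 and Hmga2 by 1.00 on the log2 scale.

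In the morpholino groups Atf3 rose under stress as well (1.56 in scrMo and 2.84 in DkkMo cultures), as did Dusp4 (1.01 and 1.49). Of the 42 other immediate early genes 3 rose and 10 fell in scrMo cultures, with Egr2 at -1.10 and Klf10 at -1.07, and 9 rose and 11 fell in DkkMo cultures, with Klf10 at -1.61. Tested as the interaction of scrMo against NT with condition, the difference was DE and negative for 20 of these 42 genes, led by Sgk1 (-1.80) and Pim1 (-1.75), and positive for 6, led by Rhob (1.46), beside 10.9% of all genes in either direction. Errfi1, a feedback inhibitor of the EGF receptor, fell under stress in scrMo (-1.35) and DkkMo cultures (-0.78), and so did the kinase Map2k3, which activates p38 (-1.26 and -1.06). AP-1 targets fell in 13 of 19 cases in scrMo cultures (median -0.80) and in 10 of 19 in DkkMo cultures (median -0.68), while 2 and 3 rose. Of all genes 10.7% were DE under stress in scrMo and 16.5% in DkkMo cultures. With voom these shares were 27.1% and 35.4%, and that for the scrMo interaction was 25.6%, while the lists were not counted with voom. Timp1 stood at -2.11 in scrMo and -2.53 in DkkMo cultures and the metallothionein Mt2 at -2.03 and -2.13.

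Direct comparison of stressed scrMo with stressed NT cultures showed 10 falls and 4 rises among other immediate early genes (median -0.23), 4 falls among the 13 ERK feedback genes (median -0.19), and 4 falls and 1 rise among AP-1 targets (median -0.35), beside a median of -0.002 over all genes, of which 4.43% were DE. The other 9 ERK feedback genes were not DE. With voom the share of all genes was 17.8% in this comparison, and the lists were not counted with voom. Csrnp1 (-1.26) and Sgk1 (-1.22) fell most among the immediate early genes, and Btg2 (0.86) and Klf2 (0.83) rose. Errfi1 (-1.81) and Dusp5 (-1.44), a nuclear ERK phosphatase, fell in the feedback list, and Plaur (-1.54), the urokinase receptor, among the targets, where Vegfa rose (0.99). In the log phase DkkMo against scrMo comparison, Dusp5 fell (-1.07), the protease genes Mmp13 (1.07) and Plau (0.86) rose, and among partners Maf rose (0.97) and Atf3 fell (-0.73). The log phase change of Mmp13 for scrMo against NT was -1.57.

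**Figure D5:**
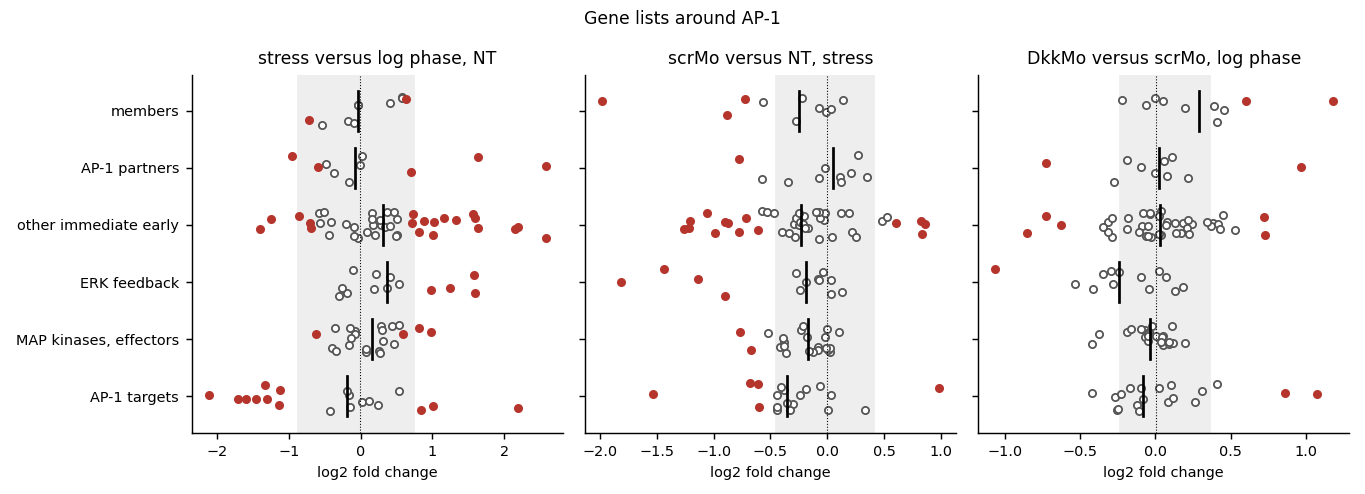
Log2 fold change (x axis, deposited scale) of each measured gene of the 10 genes and of 5 lists around AP-1 in 3 comparisons; red points are DE, open points are not, black bars are list medians, the dotted line is the median of all genes and grey spans the middle 90% of all genes. Vertical scatter within a list only separates points. ERK feedback genes have a median of 0.37 under stress in NT cultures and of -0.19 for scrMo against NT under stress.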

How the data were processed

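The authors aligned reads to GRCm38 (Ensembl 98) with HISAT2 2.1.0, counted them per gene with featureCounts of Subread 2.0.0, and deposited values after the variance-stabilising transformation of DESeq2, on the log2 scale. Strandedness and the treatment of overlapping genes are not given in the sources used here. The lowest value, 7.1981, stands for 0 reads. Reversing the transformation gave whole reads in all 18 libraries (tolerance 0.001). From these, normalised counts were taken. Log2 fold changes were tested on the deposited log2 values with limma 3.58.1 in R 4.3.3, with 1 mean per group, all 18 libraries, trended variance, and Benjamini-Hochberg adjustment over 16562 genes. The tests were also run on simulated counts, but the outcome is not given here and no support for the calls is drawn from it. Alternatives were a filter at the median gene, only the groups compared, centred libraries, log2 counts plus 1, voom, the replicate number as a block and each replicate left out. Members and lists were chosen with earlier results of these data known. From each list, at most 2 rises and 2 falls per comparison were eligible by size among DE genes without overlap between groups. Coordinates and exon lengths are from GENCODE for GRCm38. Tumours were not used.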

Additional observations from a re-analysis of the deposited data

Results flagged for a closer look

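These 6 results stood out because the effect of a morpholino differed between log phase and nutritional stress by the interaction test of limma on all 18 libraries, and no explanation was tested. For scrMo against NT the interaction was -1.69 for Egr1 (adjusted p = 2.39e-08), the effect being -0.29 in log phase and -1.98 under stress. For Fosl1 it was -1.32 (adjusted p = 1.01e-06), from 0.44 to -0.89, with the shared reads of Ccdc85b as described. For Fos it was 1.15 (adjusted p = 0.000636), from -1.42 to -0.27. For Ier3 it was -0.61 (adjusted p = 0.00143), from 0.60 to -0.01, and this call was lost in 4 of 17 alternatives, the value nearest 0 being -0.52 without log phase scrMo replicate 1. For DkkMo against scrMo the interaction was -1.21 for Fos (adjusted p = 0.00132), from 1.18 to -0.03, and -0.94 without log phase DkkMo replicate 2. For Ier2 it was -0.71 (adjusted p = 0.00342), from 0.39 to -0.32, and -0.56, under 1.5-fold, without log phase DkkMo replicate 1. The 2 kinds of interaction share the scrMo libraries.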

How the results depend on the processing

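Of the 28 calls of members, 19 held under every alternative run, and 9 were lost in some of them, each time by falling under 1.5-fold at an adjusted p still below 0.05 and in the same direction. The variance-stabilised scale compresses genes with few reads, and counts of DE genes over all genes rose on log2 counts plus 1 and with voom, to 6251 and 6318 (from 3000) for stress in NT, 4477 and 4486 (from 1766) for stress in scrMo, 5854 and 5861 (from 2726) for stress in DkkMo, 1320 and 1345 (from 405) for scrMo against NT in log phase, 2923 and 2946 (from 734) for scrMo against NT under stress, 1158 and 1136 (from 326) for DkkMo against scrMo in log phase, 891 and 918 (from 166) for DkkMo against scrMo under stress, 523 and 569 (from 137) for DkkMo against NT in log phase, 2317 and 2305 (from 441) for DkkMo against NT under stress, 4220 and 4242 (from 1810) for the scrMo interaction and 1553 and 1501 (from 613) for the DkkMo interaction. Members called for stress in NT rose from 2 to 6 under both. With only genes above the median gene, so with fewer genes tested, DE genes numbered 1984 for stress in NT, 269 for scrMo against NT in log phase, 199 for DkkMo against scrMo in log phase, 107 for DkkMo against scrMo under stress and 394 for the DkkMo interaction. Centring left 1 member called for DkkMo against scrMo in log phase, and moved the share of DE genes that were higher from 45.4% to 66.7% for stress in NT, 41.1% to 52.8% for stress in scrMo, 37.9% to 63.6% for stress in DkkMo, 42.8% to 31.7% for scrMo against NT under stress, 50.8% to 34.7% for the scrMo interaction and 23.5% to 46.9% for the DkkMo interaction. Leaving out each replicate in turn gave 2 to 4 members called and 2959 to 3117 DE genes for stress in NT, 3 to 4 members called and 1562 to 1948 DE genes for stress in scrMo, 4 to 5 members called and 2646 to 2927 DE genes for stress in DkkMo, 1 to 2 members called and 377 to 468 DE genes for scrMo against NT in log phase, 3 to 4 members called and 682 to 806 DE genes for scrMo against NT under stress, 1 to 2 members called and 204 to 418 DE genes for DkkMo against scrMo in log phase, 0 members called each time and 147 to 194 DE genes for DkkMo against scrMo under stress, 0 to 2 members called and 113 to 165 DE genes for DkkMo against NT in log phase, 3 to 4 members called and 404 to 468 DE genes for DkkMo against NT under stress, 3 to 5 members called and 1725 to 1961 DE genes for the scrMo interaction and 1 to 2 members called and 463 to 736 DE genes for the DkkMo interaction. For DkkMo against scrMo in log phase the lowest count of DE genes, 204, came without DkkMo replicate 2. The sign of 20 of the 110 member changes turned in some alternative, none of them past an adjusted p of 0.05 where it turned. With centred libraries the turned values were 0.12 for Fosl1 (stress in NT), 0.12 for Ier2 (stress in NT), 0.066 for Ier3 (stress in NT), 0.031 for Jund (stress in scrMo), 0.039 for Jund (scrMo against NT in log phase), -0.0068 for Dusp1 (scrMo against NT under stress), -0.012 for Jund (DkkMo against scrMo in log phase) and 0.0020 for Fos (DkkMo against scrMo under stress). With a replicate left out, ranges that crossed 0 were -0.072 to 0.024 for Jund (stress in scrMo), -0.032 to 0.16 for Dusp1 (stress in scrMo), -0.014 to 0.12 for Fosl2 (stress in DkkMo), -0.064 to 0.024 for Jund (scrMo against NT in log phase), -0.039 to 0.032 for Ier3 (scrMo against NT under stress), -0.011 to 0.072 for Dusp1 (scrMo against NT under stress), -0.065 to 0.068 for Fosl2 (DkkMo against scrMo in log phase), -0.010 to 0.12 for Jund (DkkMo against scrMo in log phase), -0.16 to 0.034 for Ier3 (DkkMo against scrMo in log phase), -0.12 to 0.063 for Fos (DkkMo against scrMo under stress), -0.059 to 0.060 for Fosb (DkkMo against scrMo under stress), -0.0091 to 0.085 for Fosl2 (DkkMo against scrMo under stress), -0.023 to 0.11 for Jund (DkkMo against NT in log phase), -0.12 to 0.13 for Ier2 (DkkMo against NT in log phase), -0.035 to 0.10 for Jund (DkkMo against NT under stress), -0.045 to 0.023 for Dusp1 (DkkMo against NT under stress) and -0.031 to 0.10 for Fosl2 (the DkkMo interaction). The cause of these shifts was not tested. Same-numbered libraries correlated at -0.059 to 0.62 after group means were removed, and in no comparison did all of them pass 0.1. For stress in DkkMo all were positive (0.044 to 0.35), beside a mean of -0.074 for other numbers. For DkkMo against scrMo in log phase they ran from -0.049 to 0.62, beside -0.18. From 0 to 4 of 6 libraries correlated best with their own number. Numbers were not taken as pairs, and a shared replicate effect is not excluded. The replicate block gave 1766 DE genes for stress in scrMo, 2727 for stress in DkkMo and 405 for scrMo against NT in log phase. It gave 328 for DkkMo against scrMo in log phase, 167 under stress, 137 for DkkMo against NT in log phase and 617 for the DkkMo interaction. The same number of members was called as without the block. No paired analysis was possible for comparisons with stressed NT cultures because 2 of their titles share a number. With 24 to 71 reads per library, counting error is large for Jund.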

Other observations

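The genes outside the members whose deposited values followed each member most closely over the 18 libraries are given by Pearson's r, with no test, predicted genes left out. Egr1 was followed by Pcyt1b (0.95), Becn1 (0.95) and Tnc (0.95), Fosl1 by Ccdc85b (0.999), Arhgap22 (0.99) and Ruvbl2 (0.98), and Ier2 by Zdhhc16 (0.96), Ilk (0.96) and Rrp8 (0.95). Fos was followed by Ccdc152 (0.94), Jun by Mrc2 (0.93), Ier3 by Rnf7 (0.94), Fosl2 by Klc1 (0.92), Dusp1 by Hyal1 (0.90), Fosb by Nbn (0.89) and Jund by Apoo (0.83).

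Within groups the members leaned towards single libraries. Stressed scrMo replicate 1 was the highest of its group for 8 of 10 members and for 34.7% of all genes, and stressed scrMo replicate 2 was the lowest for 9 of 10 and for 29.7% of all genes. Log phase scrMo replicate 1 was the highest for 7 of 10 members and for 41.2% of all genes, and replicate 2 the lowest for 9 of 10 and for 27.4% of all genes. Log phase NT replicate 1 was the highest for 8 of 10 members and for 36.1% of all genes.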
